A study of Homo sapiens with 2 samples.

Results

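The caspases CASP2, CASP4, CASP6, CASP8, CASP9 and CASP10, the caspase-8 regulator CFLAR and the caspase-activating adaptor APAF1 were described in a pair of related colorectal cancer cell lines. The 8 genes were chosen by name, and all of them were found in the gene files of both lines, among 36953 genes. They hold 130 of 277804 exon regions, 887 of 2211260 exon-exon junctions, 219 of 429011 exon-intron boundaries and 44 of 62371 transcripts. An exon region is a stretch of an exon between neighbouring annotated edges, so exon 3 of a gene can hold regions 3a, 3b and so on.

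MIP101 is a human colorectal cancer line that is sensitive to 5-fluorouracil (5-FU), a pyrimidine analogue that blocks thymidylate synthesis and is built into RNA and DNA. MIP/5FU is a single resistant clone, obtained by passaging MIP101 in rising concentrations of the drug; its IC50 for 5-FU was 10-fold higher, and it was kept in 5 µM 5-FU. Cells of both lines were grown without drug for about 48 hours before polyadenylated RNA was taken for paired-end sequencing. The series holds 1 library per line.

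Caspases are cysteine proteases that are made as inactive precursors and cut their targets after aspartate. Death receptors at the cell surface recruit CASP8 and CASP10 through the adaptor FADD, and CFLAR, a caspase relative without protease activity, competes for the same complex. Cytochrome c released from mitochondria binds APAF1, which assembles into the apoptosome and activates CASP9; both routes end in executioner caspases, to which CASP6 is counted. CASP2 is activated in stress responses through a complex with PIDD, and CASP4 senses bacterial lipopolysaccharide inside the cell.

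The MIP101 library held 200141071 reads on genes and the MIP/5FU library 109693681. The junction files held 24925624 and 13022878 reads. Summed over 14 colon epithelial markers, MIP101 held 8216 RPM (reads per 1000000 gene reads) and MIP/5FU 8991, and 0 of these markers were without reads in either line. Most of each sum was KRT8 (3309 and 3844 RPM) and KRT18 (2790 and 3307). In MIP101 CDX1 stood at 0.47 RPM, MUC2 at 0.50 and GPA33 at 0.29. Single markers moved both ways, with KRT20 6.77-fold higher in MIP/5FU and VIL1 2.34-fold and LGALS4 2.47-fold lower. The 8 hepatocyte markers summed to 8.47 and 7.03 RPM, with APOA1 and TTR at 0 in each line. The 10 blood cell markers summed to 8.60 and 5.42 RPM (3 and 2 of them at 0), and the 8 of fibroblasts and endothelium to 21.1 and 17 RPM (3 and 4 at 0). Among the latter COL3A1 had 1659 reads in MIP101 against 38 in MIP/5FU, while PDGFRB was 1.32-fold higher. All ratios below are MIP/5FU over MIP101, as shares of all gene reads with 0.5 reads added to each count. With 1 library per line no difference has a replicate check and no p-value is given. Intervals are exact binomial ones at 95% unless another level is named, and they cover counting error only, since the reads carry no molecular identifiers. A lower level can mean fewer cells with the transcript or less of it per cell, which bulk RNA cannot tell apart.

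The sequences that the results turn on are shown first. CASP8 has several annotated first exons, and exon 3 was the first of them with more than a few reads. The 300 bases around its exon 3 start (RefSeq, GRCh38.p14, chr2:201257785-201258084, plus strand, 250 bases before the start site and 50 from it) and around its exon 1 start (chr2:201233213-201233512, plus strand) follow. Capitals mark motif matches on either strand.

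CASP8 exon 3 start: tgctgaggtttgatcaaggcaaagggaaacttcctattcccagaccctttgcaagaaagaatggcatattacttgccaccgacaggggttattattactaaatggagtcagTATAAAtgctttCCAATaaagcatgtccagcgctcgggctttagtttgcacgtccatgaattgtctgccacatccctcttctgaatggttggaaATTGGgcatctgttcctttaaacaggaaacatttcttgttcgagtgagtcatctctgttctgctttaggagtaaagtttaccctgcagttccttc

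CASP8 exon 1 start: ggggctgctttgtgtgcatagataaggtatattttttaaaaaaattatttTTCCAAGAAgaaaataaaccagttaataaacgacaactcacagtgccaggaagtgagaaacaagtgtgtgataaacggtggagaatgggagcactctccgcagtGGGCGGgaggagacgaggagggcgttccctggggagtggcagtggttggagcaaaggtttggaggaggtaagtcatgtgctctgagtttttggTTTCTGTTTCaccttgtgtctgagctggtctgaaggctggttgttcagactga

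The coding exons that were low in MIP/5FU are represented by exon 7 of CASP8, 106 bases (GENCODE, GRCh38, chr2:201271516-201271621, plus strand), and exon 3 of CASP10, 94 bases (chr2:201187706-201187799, plus strand). Both are wholly coding, and their reads are given with each gene.

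CASP8 exon 7: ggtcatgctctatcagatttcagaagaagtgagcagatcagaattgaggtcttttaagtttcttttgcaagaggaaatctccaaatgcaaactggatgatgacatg

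CASP10 exon 3: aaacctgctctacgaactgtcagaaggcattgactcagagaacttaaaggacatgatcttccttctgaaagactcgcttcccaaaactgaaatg

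Read per base, the order of the genes in MIP101 was CASP2, CASP4, CASP6, CFLAR, APAF1, CASP8, CASP9 and CASP10, from a normalized coverage of 282 down to 8.91. In MIP/5FU it was CASP2 (246), CASP4 (216), CASP6 (150), APAF1 (87.0), CFLAR (66.2), CASP8 (28.6), CASP9 (18.5) and CASP10 (6.41). Over all exon bases APAF1 and CFLAR changed places, and the other genes kept theirs. Over wholly coding exon regions without masked bases, more genes changed places. By that measure CASP8 stood above CASP9 in MIP101 (54.5 and 46.6) and below it in MIP/5FU (21.1 and 43.4). CASP2 stood above CASP4 in MIP101 (302 and 287) and below it in MIP/5FU (248 and 264). APAF1 and CFLAR changed places by that measure too. Without replicates no spread is known for neighbours in either order.

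**Figure D1:**
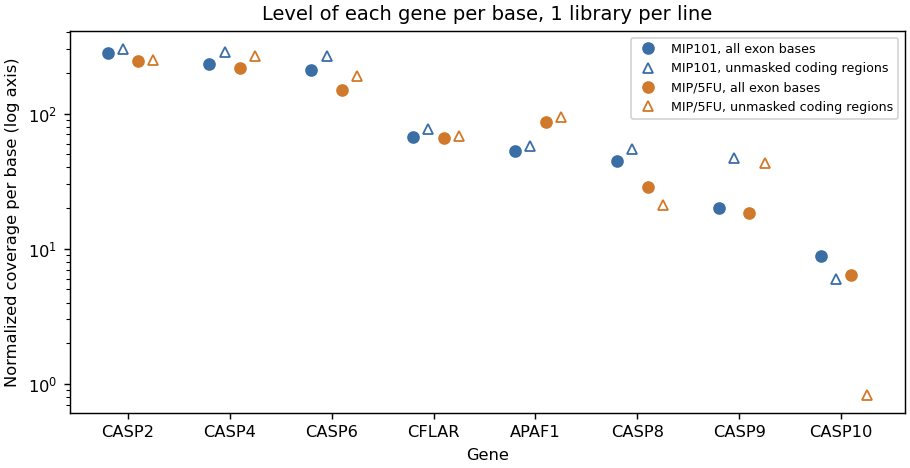
Normalized coverage per base (log axis) of the 8 genes in MIP101 (blue) and MIP/5FU (orange), over all exon bases (circles) and over wholly coding exon regions without masked bases (triangles). APAF1 lies higher in MIP/5FU (87.0 against 52.4 over all bases), while the coding regions of CASP8 (21.1 against 54.5) and CASP10 (0.823 against 5.99) lie lower.

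At the gene level 0 of the 8 genes were 2-fold higher or lower with an interval that excludes no difference, beside 5.62% of all 15382 genes with at least 100 reads. At 1.5-fold, 1 gene was higher (APAF1) and 1 lower (CASP8), beside 8.67% of all genes higher and 8.14% lower. The median log2 ratio was -0.13 over the 8 genes and 0.03 over all genes tested. Gene reads, however, include long untranslated and repeat-masked stretches, so the ratio was also taken over exon regions that are wholly coding and hold no repeat-masked base. This measure was added after the values of the exon regions had been seen. By it, 2 of the 8 genes were lower at 2-fold, CASP8 and CASP10, and 0 higher, beside 3.44% lower and 2.02% higher of the 10882 genes that could be measured this way. Reads on junctions of Ensembl transcripts, a count of spliced RNA, placed 1 of the 8 genes, CASP10, past 2-fold, lower, beside 3.71% of 11477 genes.

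**Figure D2:**
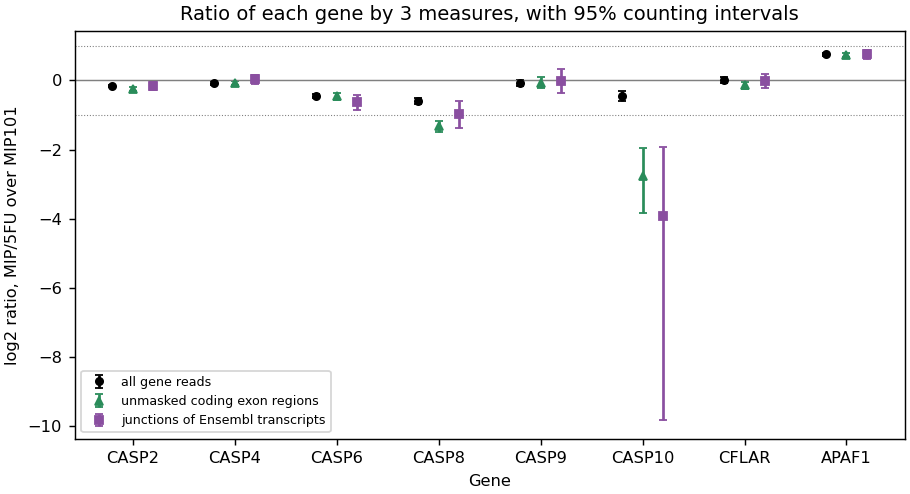
The log2 ratio of MIP/5FU over MIP101 for each gene from all gene reads (circles), unmasked coding exon regions (triangles) and junctions of Ensembl transcripts (squares), with 95% counting intervals and dotted lines at 2-fold. The 3 measures lie close together for CASP2, CASP4, CASP9, CFLAR and APAF1, and apart for CASP8 and CASP10.

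CASP8 (ENSG00000064012, hg18 chr2:201806411-201860679, plus strand), the initiator protease of death receptors, was lower in MIP/5FU, and its coding sequence was lower by more than the gene as a whole. The gene had 4109 reads in MIP101 against 1487 in MIP/5FU, which is 1.51-fold lower (1.43 to 1.61). Its 11 coding regions without masked bases held 1966 and 424 read equivalents, which is 2.52-fold lower (2.27 to 2.80). A read equivalent is the deposited base coverage divided by the mean number of bases that a read placed (40.4 for MIP101, 39.8 for MIP/5FU), because the exon region files hold no read counts. Its Ensembl junctions had 287 and 76 reads, which is 1.96-fold lower (1.53 to 2.57).

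CASP8 was covered from exon 3 on in both lines. Exons 1 and 2 together held 1 read equivalent in MIP101 and 4 in MIP/5FU, and exon 4, another annotated start, held 0 in each. Exon 3, part untranslated and part coding, held 176 and 27, which is 3.51-fold lower (2.37 to 5.57). Of the annotated junctions from exon 3 to exon 5, the one from the end of region 3d to region 5a had 41 reads in MIP101 against 4 in MIP/5FU. Region 3d was 5.12-fold lower (2.97 to 10.3). Region 3b was 1.76-fold lower, with an interval that includes no difference (0.94 to 3.75). Region 3a, the first 16 bases of exon 3, held 0 read equivalents in each line, and where transcription starts was not measured. The exon 3 window printed above holds TATAAA 139 bases before the start site, which 11.5% of 35116 RefSeq promoters hold on either strand, and CCAAT at 2 places, which 34.6% hold. The exon 1 window holds matches to GAAA, any 2 bases, GAAA, a core of interferon response elements (3.57% of promoters), TTCNNNGAA, a STAT site core (7.66%), and GGGCGG, a GC box (44.9%), and the exon 3 window holds 0 of these. Such a match is a description of the letters and not a bound site. The promoter table held 7 of the 8 genes, with CASP10 unmatched.

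The coding exons that follow were low in MIP/5FU from end to end, though by different amounts. Exon 5, which encodes the start of the death effector domains, held 383 and 49 read equivalents, 4.25-fold lower (3.18 to 5.90). Exons 7 and 8 held 305 and 59, 2.82-fold lower (2.14 to 3.82), and of these exon 7 as printed above held 127 and 25. Exons 10 and 11 held 264 and 91, 1.59-fold lower (1.25 to 2.05). Exon 10 alone held 53 and 18, with an interval that includes no difference (0.94 to 2.96). Exon 14 with region 15a, the last coding stretch, held 990 and 220, 2.46-fold lower (2.12 to 2.86). The groups of exons were formed after their values had been seen.

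Exon 12, of which regions 12a and 12b are coding, did not share the lower level. The end of exon 15 was less low than the groups of coding exons above. Exon 12 spans 447 bases, of which 86.6% are repeat-masked, and held 874 read equivalents in MIP101 and 538 in MIP/5FU, a log2 ratio of 0.17 (0.01 to 0.32). Region 15b, the 3' untranslated end, has 48.0% of its bases masked and held 1037 and 454, a log2 ratio of -0.32 (-0.48 to -0.16). Exon 12 thus made up 21.5% of the gene's exon coverage in MIP101 and 37.0% in MIP/5FU. The coverage of masked sequence is used as deposited, and the placing of reads from repeats was not tested.

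**Figure D3:**
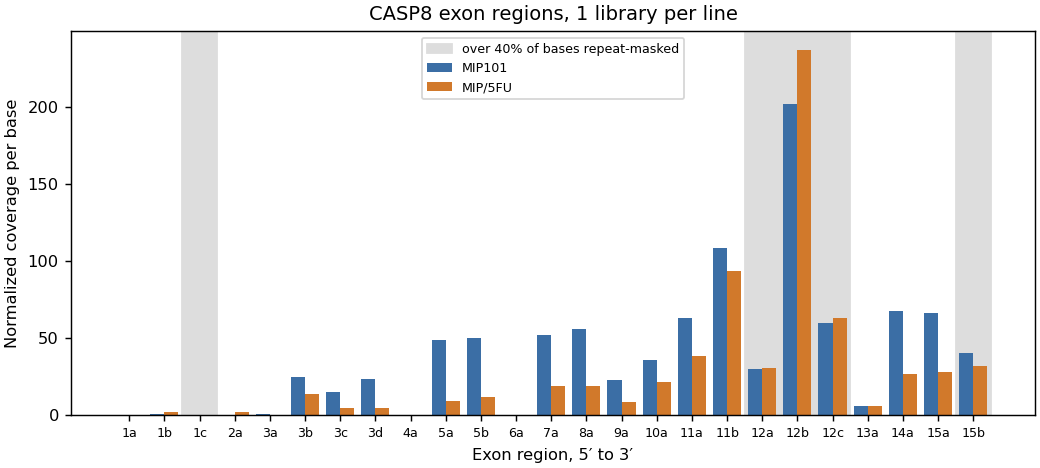
Normalized coverage per base of every CASP8 exon region from 5' to 3' in MIP101 (blue) and MIP/5FU (orange), with grey behind regions of which over 40% is repeat-masked. The orange bars are lower from exon 3 to exon 11 and at 14a and 15a, and reach or pass the blue ones in the 3 regions of exon 12.

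Reads across the edges of exon 12 moved with its coverage. The unspliced edge at the start of region 12b, all of it masked, had 31 reads in MIP101 against 20 in MIP/5FU. Of the 62 bases of the spliced junction from exon 11, 31 are unmasked. Splicing from the end of exon 11 into exon 12 had 8 reads in MIP101 against 13 in MIP/5FU, while splicing from the same donor to exon 14, which leads into the protease domain, had 45 and 10. With the mean of the inclusion junctions on both sides as inclusion, the share that skips to exon 14 was 91.8% (80.4 to 97.7) in MIP101 and 58.8% (32.9 to 81.6) in MIP/5FU, intervals that overlap. With the smaller of both sides it was 100% in each line, since 0 reads joined exon 12 or 13 to exon 14. Exons 12 and 13 are the last exons of the annotated transcripts that hold them, so neither share measures the skipping of an internal exon. The 100% followed from the annotation, and the mean of both sides takes in a side that is 0 for the same reason. Of the reads from the exon 11 donor alone, a measure added after the values were seen, exon 12 took 15.1% (6.75 to 27.6) in MIP101 and 56.5% (34.5 to 76.8) in MIP/5FU, intervals that do not overlap. Junctions into exon 12 that no Ensembl transcript holds had reads at 9 of 26 combinations, with 25 reads in MIP101 against 20 in MIP/5FU, whereas all other CASP8 junctions had 284 and 63. One of these, from exon 8 to exon 12, had 5 and 10 reads, and another, from exon 3 to exon 12, had 9 and 3. The junction of exons 14 and 15 had 32 reads in MIP101 against 3 in MIP/5FU.

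Each feature was also set against its own gene. Its splicing index is what remains of its log2 ratio once the gene's is taken off, counted where it reached 1 in size and a strict interval, with 0.1% of the probability outside, excluded 0. The interval takes the gene's ratio as exact. Of the 130 exon regions of the 8 genes, 100 had enough reads, and 2 were counted, both lower and both in CASP8, beside 0.111% lower of 139703 regions in all genes. Region 3d had an index of -1.76 (-3.49 to -0.51) with 123 and 13 read equivalents over 228 bases that only 2 Ensembl transcripts hold, and region 5b one of -1.46 (-2.29 to -0.76) with 352 and 46. The highest index in CASP8 was that of region 12b, 0.86, with 369 and 241. Measured against the coding regions in place of all gene reads, 4 exon regions of the 8 genes were counted as higher and 0 as lower, beside 0.23% and 0.0916% of all regions. The coding ratio was likewise taken as exact. Of these 4, 3 are in CASP8: region 12b with an index of 1.59, region 12c with 1.43 and region 15b with 1.01.

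Of 887 junctions 79 could be tested by the index and 0 were counted, beside 0.156% of 107276. The lowest index among CASP8 junctions was -1.75, for exons 14 and 15, and the highest 2.13, for exons 11 and 12. Of 219 boundaries 19 could be tested and 1 was counted, as higher, beside 0.741% higher of 31842. It lies inside exon 12 of CASP8, at the donor edge between regions 12b and 12c, with 60 reads in MIP101 against 47 in MIP/5FU and an index of 1.12 (0.14 to 2.06), and all its bases are masked. Of 44 transcripts 10 had enough reads on features of their own and 0 were counted, beside 0.690% of 15209.

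CASP10 (ENSG00000003400, hg18 chr2:201755866-201802355, plus strand) is the other death-receptor initiator and lies beside CASP8. It was the least abundant of the 8 genes per base, and its coding exons were almost without reads in MIP/5FU. Gene reads numbered 1361 and 550, 1.36-fold lower (1.23 to 1.5), but most of them fell on exon 11. That exon spans 4073 bases, 50.7% of them masked, and held 1103 read equivalents in MIP101 against 507 in the resistant line, 1.19-fold lower (1.07 to 1.33). It made up 83.6% of the gene's exon coverage in MIP101 and 95.9% in MIP/5FU.

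Upstream of it, exons 1 to 10 held 214 and 22 read equivalents, 5.27-fold lower (3.45 to 8.78). Exons 3 to 9 held 85 and 2, a ratio of 19.1-fold lower whose interval runs from 6.33 to 207. Exon 2, outside this group, held 50 in MIP101 and 8 in MIP/5FU. The groups of CASP10 exons were formed after their values had been seen. Exon 3, printed above, held 16 in MIP101 and 0 in MIP/5FU. The 7 coding regions without masked bases together held 148 and 11.3, 6.81-fold lower (3.88 to 14.4). Exon 10 kept the most of them, with 65 in MIP101 and 9 in MIP/5FU.

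Spliced CASP10 reads went the same way. Over all 66 junctions of the gene there were 44 reads in MIP101 against 1 in MIP/5FU, and over the 14 of Ensembl transcripts 43 and 1, 15.1-fold lower with an interval from 3.82 to 907. The 1 read in MIP/5FU joined exons 10 and 11, which had 9 in MIP101. The junction of exons 2 and 3 had 9 and 0. Only 3 of the 12 exon regions had enough reads for an index, between -1.42 in exon 10 and 0.19 in exon 11. Set against the coding regions, exon 11 had an index of 2.52 (2.26 to 2.77), the fourth region counted in that comparison. That interval takes the coding log2 ratio of -2.77 as exact and is too narrow. The coding ratio's own 95% interval ran from -3.84 to -1.96, on 11.3 read equivalents in MIP/5FU.

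**Figure D4:**
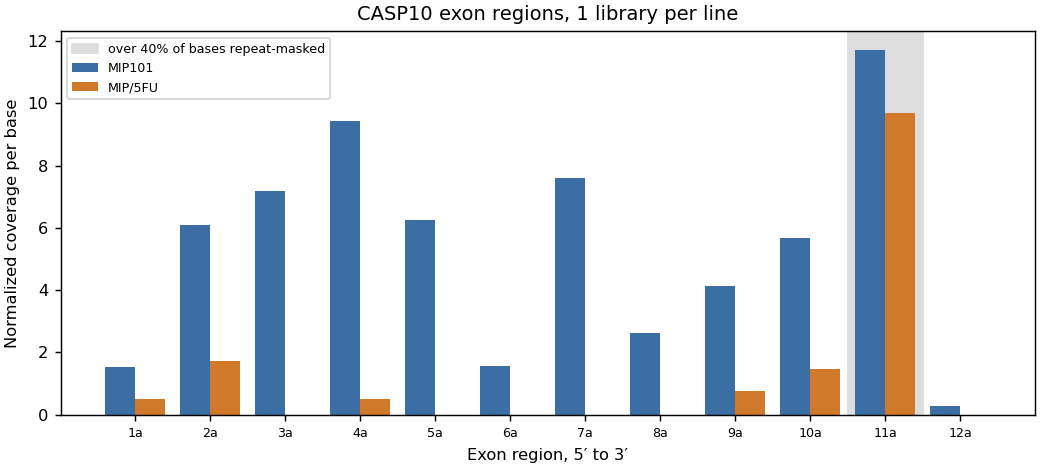
Normalized coverage per base of every CASP10 exon region from 5' to 3' in MIP101 (blue) and MIP/5FU (orange), with grey behind regions of which over 40% is repeat-masked. In exon 11 the lines stand at 11.7 and 9.68, while from exon 3 to exon 9 MIP/5FU reaches at most 0.753.

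CFLAR (ENSG00000003402, hg18 chr2:201689135-201737246, plus strand), the third member of this cluster and a regulator of CASP8, had nearly the same share of reads in both lines. It had 4101 reads in MIP101 against 2262 in MIP/5FU, a log2 ratio of 0.01 (-0.07 to 0.08). Its coding regions held 2216 and 1092 read equivalents, a log2 ratio of -0.14 (-0.25 to -0.03). Of its 14 tested exon regions 8 lay below 0 and 6 above, and the splicing index ran from -0.44 in exon 13 to 0.47 in exon 11.

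CFLAR is known for long and short proteins that arise by alternative splicing, and both lines used several alternative exons. Exons 5, 7, 11 and 13 are each the last exon of the annotated transcripts that hold them. A skip of one of them is thus splicing past an alternative end. Exon numbers here are those of the deposited annotation and need not match those in use elsewhere. From the donor of exon 4, exon 5 took 27 of 107 reads in MIP101, 25.2% (17.3 to 34.6), and 9 of 46 in MIP/5FU, 19.6% (9.36 to 33.9); the skip to exon 6 had 80 and 37. From the donor of exon 6, exon 7 took 16 of 65, 24.6% (14.8 to 36.9), and 10 of 35, 28.6% (14.6 to 46.3), and the skip to exon 8 had 43 and 25. For these donors the intervals overlap widely.

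From the donor of CFLAR exon 12, exon 13 took 14 of 69 reads in MIP101, 20.3% (11.6 to 31.7), and 13 of 35 in MIP/5FU, 37.1% (21.5 to 55.1), and the skip to exon 14 had 55 and 22. The coverage of exon 13 went the other way, from 39.0% of that of its flanking exons in MIP101 to 28.2% in MIP/5FU. Exon 11 stood at 22.0% of its flanks in MIP101 and 35.2% in MIP/5FU, but 1 read in each line joined it to exon 10, while the skip from exon 10 to exon 12 had 43 and 21 reads. The unspliced edge at the end of exon 11 had 58 reads in MIP101 against 37 in MIP/5FU, and the one at its start 9 and 4. All bases of both edges are masked, and whether the coverage of exon 11 comes from spliced RNA was not tested. Exons 7, 11 and 13 are wholly repeat-masked. The junctions of exons 4 and 5 and of exons 12 and 13 had the lowest and highest index of the gene, -0.68 and 0.76.

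The low coding level of CASP8 and CASP10 was set beside the genes around them, since the 3 genes lie in a row on chromosome 2. Among the 40 nearest tested protein-coding genes the median log2 ratio was 0.13 around CASP8, and 0 of the 40 were lower than CASP8 by gene reads. Around CASP10 1 of 40 was lower, which is CASP8. By coding regions, which 31 of the 40 neighbours have, 1 gene lay below CASP8, and that is CASP10, while 0 lay below CASP10. CFLAR on one side had a coding log2 ratio of -0.14 and ALS2CR12 on the other one of 0.45 (0.16 to 0.74), against -1.33 for CASP8 and -2.77 for CASP10.

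**Figure D5:**
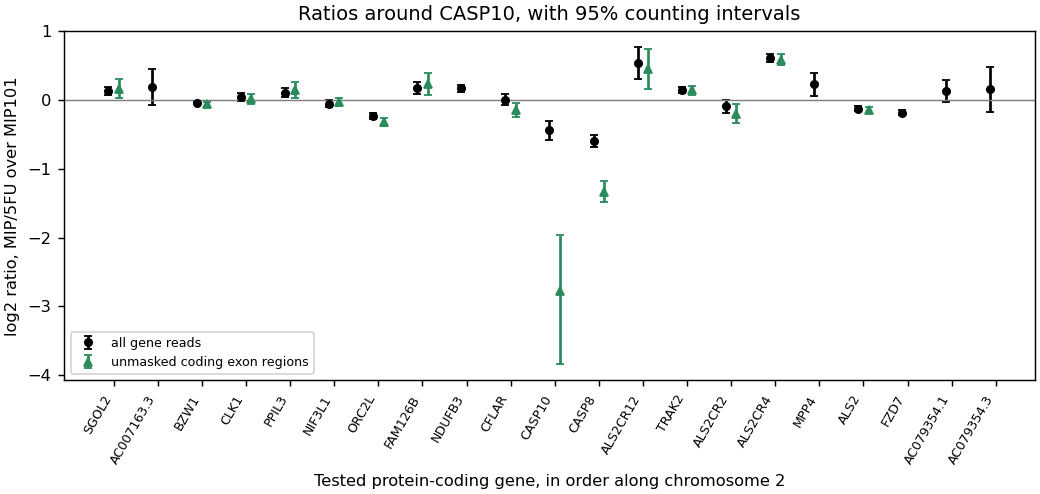
The log2 ratio of MIP/5FU over MIP101 for 21 tested protein-coding genes in order along chromosome 2, CASP10 in the middle, from all gene reads (circles) and unmasked coding exon regions (triangles, where a gene has any), with 95% counting intervals. CASP10 and CASP8 lie below the genes on both sides, by more in the coding regions.

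APAF1 (ENSG00000120868, hg18 chr12:97563209-97653335, plus strand), the core of the apoptosome, was higher in MIP/5FU along its whole length. It had 8672 reads in MIP101 against 8027 in MIP/5FU, which is 1.69-fold higher (1.64 to 1.74) given the smaller library. The coding regions gave 1.67-fold (1.60 to 1.74) from 4429 and 4014 read equivalents, and the Ensembl junctions gave 1.69-fold (1.54 to 1.85) from 1022 and 900 reads. All 27 of its exon regions were tested and 27 were higher, with log2 ratios from 0.44 in exon 8 to 1.17 in exon 2. All 27 of its tested junctions were higher too, from 0.15 to 1.73. Among the 40 nearest genes the median log2 ratio was 0.01, and 34 of them lay below APAF1.

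Exon 18 of APAF1 adds 43 codons, a WD40 repeat by which known forms of the protein differ. Its 129 bases (GENCODE, GRCh38, chr12:98703371-98703499, plus strand) are shown because both lines made transcripts with and without them.

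APAF1 exon 18: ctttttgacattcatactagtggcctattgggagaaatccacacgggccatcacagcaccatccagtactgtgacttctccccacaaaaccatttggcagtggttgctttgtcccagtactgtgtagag

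In MIP101 the junction that skips this exon had 13 reads and the flanking inclusion junctions 24 and 28, a skipping share of 33.3% (19.1 to 50.2). In MIP/5FU the skip had 24 reads and the inclusion junctions 22 and 24, a share of 51.1% (36.1 to 65.9). The intervals overlap. The skip had the highest splicing index of the gene's junctions, 0.97, and was not counted. Coverage of exon 18 stood at 65.8% of its flanking exons in MIP101 and 58.1% in MIP/5FU. The remaining indices of APAF1 were small, from -0.31 in exon 8 to 0.41 in exon 2 among exon regions, with the lowest junction, of exons 20 and 21, at -0.60.

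CASP9 (ENSG00000132906, hg18 chr1:15687322-15723527, minus strand), the protease that APAF1 activates, had 2854 reads in MIP101 against 1489 in MIP/5FU, a log2 ratio of -0.07 (-0.16 to 0.02). Coding regions gave -0.06 (-0.22 to 0.09) from 964 and 501 read equivalents. Both intervals include no difference, but the gene ratio's excludes it under other scalings, as with the median ratio of all genes at -0.10 (-0.20 to -0.01) and TMM at -0.12 (-0.21 to -0.03). The index of its exon regions ran from -0.27 in exon 2 to 0.52 in exon 9, and that of its junctions from -0.85 for exons 5 and 6 to 1.29 for exons 6 and 7. Without strand, reads of CASP9 cannot be told apart from those of RP11-265F14.2, an opposite gene that shares 3158 bases with it and was given 3 and 4 reads.

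A short form of CASP9, CASP9S, lacks exons 3 to 6, which hold 450 bases or 150 codons of the protease domain, and it is known as an inhibitor of the full-length enzyme. The junction that marks it is shown with the exon 7 side in capitals (GENCODE transcript ENST00000348549, minus strand of chromosome 1).

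CASP9 junction of exons 2 and 7: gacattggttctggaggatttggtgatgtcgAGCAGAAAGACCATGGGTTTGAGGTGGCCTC

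It had 7 reads in MIP101 against 0 in MIP/5FU. From the donor of exon 2 this was 7 of 31 reads in MIP101, 22.6% (9.59 to 41.1), and 0 of 13 in MIP/5FU, which allows a share of up to 24.7% by the same exact interval. At this depth a difference was not detectable. The junction has fewer reads than the 20 asked of the other skipping junctions, and was included because the short form is known.

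CASP2 (ENSG00000106144, hg18 chr7:142695524-142714906, plus strand), the stress-activated initiator, was the most abundant of the 8 genes in reads. It had 27786 reads in MIP101 against 13484 in MIP/5FU, 1.13-fold lower (1.11 to 1.15), and its coding regions were 1.19-fold lower (1.14 to 1.23). Of its 16 tested exon regions 15 lay below 0, with indices from -0.26 in region 6a to 0.47 in region 1a. The lowest and highest junction indices were -0.25, for exons 11 and 12, and 0.40, for the skip from exon 3 to exon 6.

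CASP2 is known for a short form made by taking in an extra exon near its 3' end. Exon 10, of 68 bases, is the last exon of 1 annotated transcript, and whether it is that extra exon was not tested. It was covered at 6.30% of its flanking exons in MIP101 and 7.47% in MIP/5FU. The junction from exon 9 to exon 11 had 187 and 82 reads with 0 inclusion reads in each line. Exon 5, wholly masked and also the last exon of 1 annotated transcript, stood at 5.06% and 3.71% of its flanks. The skip from exon 4 to exon 6 had 180 and 79 reads. The junction from exon 3 to exon 6 had 33 and 21 reads. Exon 10 had an index of 0.16 and was not counted, while exon 5, with 29 and 9 read equivalents, had too few for an index.

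CASP6 (ENSG00000138794, hg18 chr4:110829234-110844078, minus strand), an executioner known for cutting lamin A, was lower in MIP/5FU, and unevenly so along the gene. It had 7987 reads in MIP101 against 3192 in MIP/5FU, 1.37-fold lower (1.32 to 1.43). Exons 1 to 3 held 2391 and 1098 read equivalents, 1.19-fold lower (1.11 to 1.28), and exons 4 to 6 held 2344 and 773, 1.66-fold lower (1.53 to 1.80). Exon 7, the last, held 3255 and 1330, 1.34-fold lower (1.26 to 1.43). This grouping of exons was made after the values had been seen.

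The Ensembl junctions of CASP6 had 716 and 240 reads, 1.56-fold lower (1.34 to 1.81), and all 6 that could be tested were lower. They ran from an index of -0.52, for exons 5 and 6 with 198 and 55 reads, to 0.06, for exons 3 and 4 with 92 and 38. No region was counted by the index, which ran from -0.31 in exon 5 to 0.40 in exon 2. Exon 7 shares 98 bases with CCDC109B on the opposite strand, which had 4520 and 2969 reads, and without strand the reads there cannot be told apart. The genes around CASP6 were low as well: the median log2 ratio of its 40 nearest genes was -0.36, and 16 of them lay below CASP6. By coding regions, which 33 of these neighbours have, the median was -0.53 against -0.46 for CASP6, and 18 lay below it.

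CASP4 (ENSG00000196954, hg18 chr11:104318804-104344535, minus strand), the intracellular lipopolysaccharide sensor, was close to even. It had 7592 reads in MIP101 against 3925 in MIP/5FU, 1.06-fold lower (1.02 to 1.10), and its coding regions gave the same 1.06-fold. The index of its exon regions ran from -0.05 in exon 3 to 0.33 in region 1a, and that of its junctions from -0.15, for exons 4 and 5, to 0.35, for exons 3 and 4. Exon 2 was covered at 1.58% of its flanks in MIP101 and 1.5% in MIP/5FU, and the skip from exon 1 to exon 3 had 182 and 104 reads. CASP4 has close relatives beside it on chromosome 11, of which CASP5 had 33 and 24 reads and CASP1 and CASP12 had 0; sharing of reads among them was not tested.

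The lists of partner genes were fixed by function, with earlier results of these data known, and were counted by gene reads as above. Over all genes tested, 2.53% were 2-fold higher and 3.09% lower, and 8.67% and 8.14% at 1.5-fold. Of 16 death receptors and adaptors, 0 were 2-fold higher and 2 lower, and at 1.5-fold 3 were higher and 3 lower, with a median log2 ratio of 0.09. The 2 past 2-fold were FASLG, the ligand of FAS, with 108 and 3 reads, a log2 ratio of -4.09 (-6.60 to -2.72), and the decoy receptor TNFRSF10C with 354 and 72. The kinase RIPK1 was 1.69-fold lower, while LRDD, the older symbol of PIDD1, which activates CASP2, was 1.74-fold higher and the ligand TNFSF10 1.72-fold higher. FADD, which joins CASP8 to the receptors, stood at a log2 ratio of -0.18.

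None of the 10 tested apoptosome partners and inhibitor of apoptosis proteins passed 1.5-fold in either direction, and their median log2 ratio was 0.02. The largest ratio among them was that of CYCS, cytochrome c, 1.41-fold higher with 42758 and 33048 reads, followed by BIRC2 at 1.21-fold and BIRC6 at 1.19-fold higher and HTRA2 at 1.16-fold lower. XIAP, the inhibitor of CASP9, stood at a log2 ratio of 0.00 with 17321 and 9515 reads. Of 12 inflammasome partners 5 had enough reads and 1 was 1.5-fold higher (8.67% of all genes), the receptor NLRC4 at 1.52-fold, with IL18 at 1.38-fold and GSDMD at 1.30-fold higher and NLRP3 at 1.15-fold lower, with an interval that includes no difference.

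Of 12 caspase substrates 1 was 2-fold higher, DFNA5, a gasdermin, with 54 and 74 reads, and 0 were 2-fold lower, beside 2.53% and 3.09% of all genes. The kinase PAK2 was 1.79-fold higher and GSN, which encodes gelsolin, 1.43-fold higher, while PARP1 was 1.32-fold lower. The median log2 ratio of the substrates was 0.05, near that of all genes tested.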

How the data were processed

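Polyadenylated RNA of 1 library per cell line was sequenced on paired ends. Reads were assigned to features of Ensembl release 53 on hg18, per the labels and the file headers; an aligner is not named in the sources used here. The authors deposited read counts per gene, junction and boundary, and for exon regions and transcripts the coverage (summed bases, and a signal per base that they scaled for library size). The library protocol in the labels marks no strand.

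The members and gene lists were chosen with earlier results of these data known. Counts were turned into shares of all gene reads (0.5 added), and log2 ratios were given exact conditional binomial intervals at 95%, or leaving 0.1% outside for the splicing index. Genes needed 100 reads over both libraries, exon regions and transcripts 50, junctions and boundaries 20. Genes named from each list were up to 4 with the largest ratios and all past 2-fold; FADD, XIAP and RIPK1 were added after their values were seen. Of each member, the features with the highest and lowest index were named. Analyses used Python 3.11.15, pandas 2.3.3, scipy 1.17.1 and, for 1 alternative scaling, edgeR 4.0.16. The counting of genes and exon regions by their own ratio was tested on simulated data, and counting by the splicing index was not. Sequences came from RefSeq (GRCh38.p14) and GENCODE. Alternatives comprised other scalings, minima and gene ratios, and 40 or 20 neighbours. Some genes related to the members are not reported here.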

Additional observations from a re-analysis of the deposited data

How the results depend on the processing

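No paired analysis was possible because each line has 1 library. The count of members lower at 2-fold was 0 by gene reads, 2 by the median of exon regions, 2 by unmasked coding regions and 1 by Ensembl junctions; at 1.5-fold it was 1, 2, 2 and 3. Exon regions counted as higher were 0, and 3 against the median of features, 2 with an index of log2 of 1.5 and 4 against the coding ratio; those counted as lower were 2, and 4 with that smaller index, 0 against the coding ratio and 1 among unmasked regions. Junctions counted as higher were 0, and 1 against the median of features and 1 against the coding ratio; boundaries were 1, and 0 and 2; transcripts were 0, and 1 with the smaller index and 1 against the coding ratio. The measures differ by construction in which bases of CASP8 and CASP10 enter; any other cause was not tested. The median log2 ratio of APAF1's neighbours was 0.01 over 40 genes and -0.0336 over 20. The coding, junction and unmasked settings were chosen after seeing the data. The other 56 recomputed counts stayed within 1.5 times of theirs. With at least 500 reads, death receptors and adaptors lower at 1.5-fold were 1 in place of 3 and substrates higher 1 in place of 2; scaled by the median ratio, inflammasome partners higher were 0 in place of 1. Depth limits CASP10, whose coding regions held 11.3 read equivalents in MIP/5FU, and most junction shares.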
